A study of Mus musculus with 10 samples.

Results

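Tomato hybrid cells (THC, 2 libraries) were set against control basal cells (BC, 2 libraries). These are 4 of the 10 bulk RNA libraries of sorted mouse mammary gland cells in the study, chosen by the cell type that each library's label names. The THC label names luminal cell ablation as the treatment, and Tomato is a red fluorescent reporter commonly used to mark chosen cells and their descendants. BC carried no treatment label, and the second BC library was labelled wild type (BC-WT). Tomato basal cells (TBC, 2 libraries, also labelled with luminal cell ablation) and luminal cells (LC, 2 libraries, no treatment label, the second wild type) are given beside them where they help to place a value, and Tomato luminal cells entered the common fit only. No label gives the mouse line, genotype, age, the promoter behind Tomato or the ablation, or the antibodies of the sort. THC and BC thus differ in ablation, in Tomato marking and in sort gate at once, and these cannot be told apart. The comparison asks how the RNA profile of hybrid cells differs from that of basal cells. No source says whether the libraries of 1 population are from different animals. Each p therefore covers only the spread between libraries of the same population, estimated over all 10 libraries. This spread may be technical.

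The mammary epithelium has an inner luminal layer around an outer basal layer. Luminal cells include hormone-sensing cells, which carry the estrogen and progesterone receptors, and secretory progenitors, which can make milk. Basal cells are myoepithelial: they hold keratins 5 and 14 and the factor p63, contract in response to oxytocin and anchor to the basement membrane. In the adult mouse each layer is normally kept up by its own cells, although isolated basal cells can form both layers after transplantation.

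Counts assigned to genes were 2757773 and 13601753 in THC, against 5381351 and 12286209 in BC. THC replicate 1 stood apart: it was the shallowest of the 10 libraries, so that 3 counts in it equalled 1.16 CPM (read counts scaled to a common library total by TMM), against 0.202 in THC replicate 2, 0.588 in BC replicate 1 and 0.255 in BC replicate 2. Reads without a unique alignment made up 43.0% of its total, against 14.6% to 22.4% in the other 9 libraries. On the first principal component of all libraries (47.4% of the variance), THC lay at -0.601 and -6.18, against -67.4 and -82.7 in BC. On the second (19.2%), THC lay at 86.3 and 27.4, against -50.2 and -53.0 in BC. Replicates differed by far more than counting error, with chi-square values of 32.2 in THC and 31.6 in BC for each degree of freedom. The label calls these cells hybrid without saying of what, and markers of both layers were present: basal Krt14 was at 1162 and 628 CPM in THC, against 2344 and 2216 CPM in BC and 34.8 and 10.6 CPM in LC, and luminal Krt8 was at 1005 and 649 CPM in THC, against 417 and 317 CPM in BC and 2386 and 1769.6 CPM in LC. In bulk RNA, fewer cells of a type and less RNA per cell cannot be told apart, nor can cells that hold both programmes and a mixture of cells that hold 1 each.

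Hybrid cells had higher levels of cell division genes, luminal keratins, claudins, hormone-sensing genes and caseins than control basal cells, and lower levels of part of the basal and contractile genes. The 2 strongest lists by median were mitosis (32 of 33 genes rose) and hormone-sensing (11 of 15 rose), while 6 of 16 basal identity genes fell. Fibroblast markers had a median log2 fold change of 2.68 (4 of 12 rose), close to the 2.70 of hormone-sensing genes. For immune markers it was 2.23 (2 of 15 tested rose). Of 19757 genes tested, 1524 (7.71%) were called at an adjusted p under 0.05, and 4856 had an unadjusted p under 0.05. More genes rose than fell in THC: 987 (5.0%) were higher and 537 (2.72%) lower, while the median of all genes was 0.01 on the log2 scale. Of the called genes, 525 were at least 4-fold higher and 112 at least 4-fold lower, and the median log2 fold change was 2.09 among the higher and -1.45 among the lower. Of the genes tested, 27.9% had both THC libraries above both BC libraries and 26.0% had both below. None of the 1524 called genes had overlapping libraries. The number called depended on the libraries: it was 545 without THC replicate 1, 475 without THC replicate 2, 935 without BC replicate 1 and 280 without BC replicate 2. All fold changes below are log2 values of THC over BC with their standard error, and all p-values come from edgeR's quasi-likelihood test adjusted by Benjamini-Hochberg over all genes tested.

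**Figure D1:**
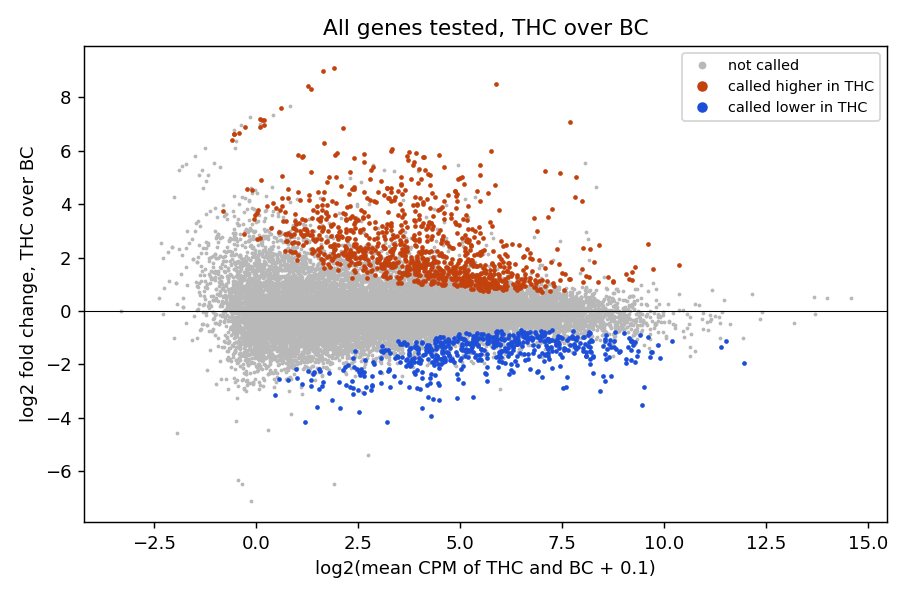
Log2 fold change of THC over BC (y axis) against the log2 of mean CPM plus 0.1 over the 4 libraries (x axis) for the 19757 genes tested, with 987 genes called higher in red and 537 called lower in blue. The higher genes reach larger fold changes than the lower ones. Fitted values of genes with few or no counts in BC depend on the prior count and are no bounds.

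The 12 genes that rose most among those with at least 10 CPM in THC held 6 genes of cell division (Aurkb, Kif2c, Cenpf, Cep55, Ccnb1 and Pclaf) and a pair of caseins (Csn1s2a and Csn2). The remaining 4 were the imprinted RNA H19, the membrane glycoprotein gene Gpnmb, and 8030451A03Rik and Gm17535, whose roles are not described here. Gpnmb (ENSMUSG00000029816, 6:49036546-49070929) had 29.1 and 21.5 CPM in THC, against 0.784 and 0.255 CPM in BC. Both THC libraries stood far above both BC libraries (log2 fold change 5.79 ± 0.79 (SE), adjusted p = 0.00332), and the call held without each library in turn. Gm17535 had 20.1 and 3.91 CPM in THC, against 0.196 and 0.170 CPM in BC, so its THC libraries lay far apart. Pooled, it had 110 counts in THC against 3 in BC, a ratio of 35.5. The 95% interval of 11.8 to 175.0 covers counting error alone and not this gap. It shares 42.9% of its exon bases with another gene. The calls of Gm17535 and 8030451A03Rik were lost without THC replicate 1, BC replicate 1 or BC replicate 2, and that of Gm17535 also without THC replicate 2 (adjusted p up to 0.284 and 0.177). The 12 genes that fell most are given with the basal genes below.

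**Figure D2:**
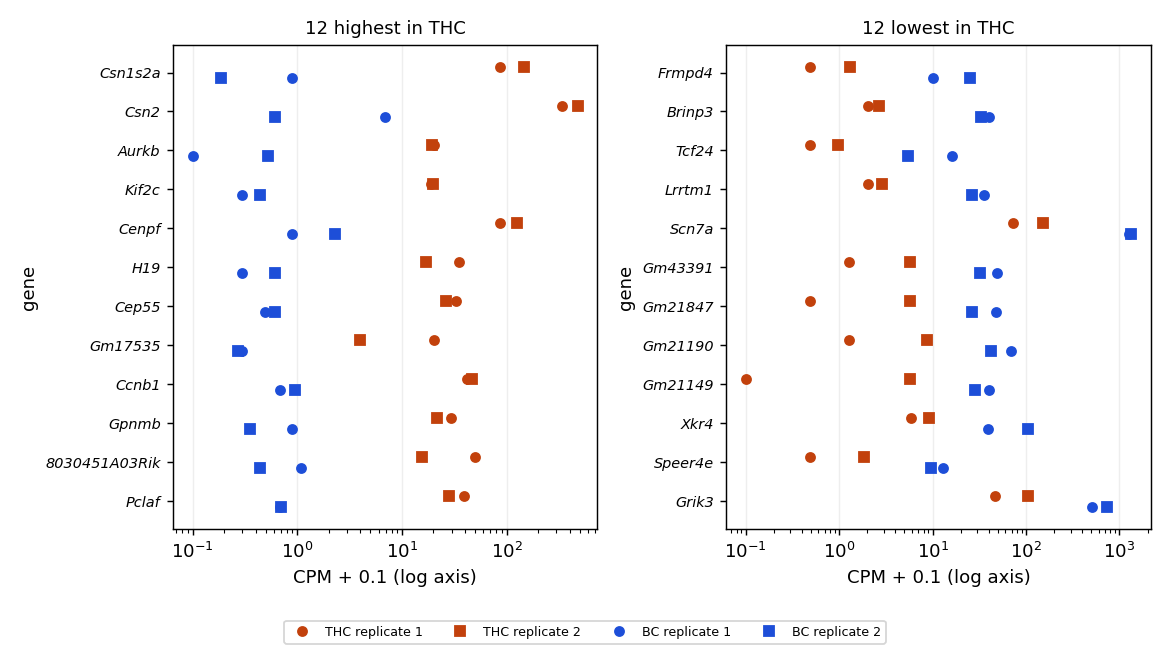
CPM plus 0.1 on a log axis (x) of the 12 genes with the highest and the 12 with the lowest log2 fold change (y), 1 point per library. THC points (red) and BC points (blue) do not overlap for any of the 24 genes, which the naming rule required.

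Genes of mitosis rose as a block. Of 33 mitosis genes, all of which were tested, 32 rose and none fell, with a list median of 4.41 against 0.01 over all genes, where 5.0% of all genes rose. Their summed level was 2006 and 2206 CPM in THC, against 112 and 122 CPM in BC. The only member that did not pass was Mad2l1, a checkpoint protein of the spindle, at 34.9 and 34.2 CPM in THC, against 5.88 and 7.23 CPM in BC (2.38 ± 0.65, adjusted p = 0.0582). All 33 members had both THC libraries above both BC libraries, against 27.9% of all genes. The number called was 20 without THC replicate 1, 17 without THC replicate 2, 14 without BC replicate 1 and 3 without BC replicate 2.

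Ube2c (ENSMUSG00000001403, 2:164769898-164778822), the enzyme that tags cyclins for destruction at the end of mitosis, had 39.1 and 35.0 CPM in THC, against 1.18 and 1.02 CPM in BC. THC libraries were close to each other and far above BC (log2 fold change 5.08 ± 0.62 (SE), adjusted p = 0.00247), although 22.8% of its exon bases lie in another gene. Cenpe, a motor protein of the kinetochore, had 83.3 and 90.9 CPM in THC, against 1.18 and 2.47 CPM in BC (log2 fold change 5.46 ± 0.63 (SE), adjusted p = 0.00268). Birc5, a subunit of the complex that corrects chromosome attachment, had 25.6 and 18.8 CPM in THC, against 0.588 and 2.21 CPM in BC (log2 fold change 3.80 ± 0.67 (SE), adjusted p = 0.01). These 3 calls held without each library in turn. Mki67 (ENSMUSG00000031004, 7:135689784-135716361), which coats mitotic chromosomes and marks cycling cells, had 396 and 499 CPM in THC, against 11.4 and 15.7 CPM in BC (log2 fold change 5.03 ± 0.62 (SE), adjusted p = 0.00347). In Mki67, Cenpf (a kinetochore protein, 5.98), Ccnb1 (cyclin B1, 5.84) and Kif2c (a kinesin that takes microtubules apart, 5.99) the groups stood as far apart, but the calls were lost without BC replicate 2 (adjusted p up to 0.0505, 0.061, 0.0754 and 0.0866). Top2a, which untangles DNA before division, had 259.9 and 269.7 CPM in THC, against 5.68 and 8.08 CPM in BC, and Aurkb, a kinase of chromosome segregation, had 20.1 and 19.2 CPM in THC, against 0 and 0.425 CPM in BC. Both calls (5.23 and 6.05) were lost whichever of the 4 libraries was left out, at an adjusted p of up to 0.119 and 0.145.

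Promoters of the list members were read from RefSeq (GRCm38.p6) in windows of 250 bases before to 50 bases after the gene start given there. Motifs were counted over whole lists and not over called genes alone. The lists themselves were chosen with earlier results of these data known, so these counts are not independent of the levels. The CHR element TTTGAA, a short motif common in promoters of late cell cycle genes, was searched on both strands, and 21 of the 28 members with a window (75%) held it, against 20.2% of 27025 genes with a window and 17.9% of all 32851 windows. Of 30 DNA replication genes with a window 5 held it, and of 8 basal identity genes none. The E2F-type motif TTTCCCGC ran the other way between these lists: it was in 5 of 30 replication genes and 0 of 28 mitosis genes, against 1.24% of all genes. Such a match is a description of the letters and not of binding. Shown are Ube2c and Mki67, the 2 called mitosis genes with the smallest adjusted p among those whose window holds TTTGAA. Mcm3, a helicase subunit of the replication list, was picked in the same way for TTTCCCGC (2.47 ± 0.56, adjusted p = 0.03). Its call was lost whichever of the 4 libraries was left out. The windows shown were thus selected for holding the motif. Capitals mark the motif on either strand, TTTGAA in Ube2c (1 match) and Mki67 (2 matches) and TTTCCCGC in Mcm3 (1 match), and no match overlaps another motif searched. All sequences run 5′ to 3′ on the gene's strand. Ube2c is at chr2:164769679-164769978 on the plus strand, Mki67 at chr7:135716330-135716629 and Mcm3 at chr1:20820263-20820562, both on the minus strand.
Ube2c: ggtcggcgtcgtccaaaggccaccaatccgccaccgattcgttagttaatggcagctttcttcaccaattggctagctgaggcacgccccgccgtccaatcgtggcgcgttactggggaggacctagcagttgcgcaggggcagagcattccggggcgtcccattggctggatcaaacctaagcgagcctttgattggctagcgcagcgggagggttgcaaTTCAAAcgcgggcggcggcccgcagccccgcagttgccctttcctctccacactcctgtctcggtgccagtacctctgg
Mki67: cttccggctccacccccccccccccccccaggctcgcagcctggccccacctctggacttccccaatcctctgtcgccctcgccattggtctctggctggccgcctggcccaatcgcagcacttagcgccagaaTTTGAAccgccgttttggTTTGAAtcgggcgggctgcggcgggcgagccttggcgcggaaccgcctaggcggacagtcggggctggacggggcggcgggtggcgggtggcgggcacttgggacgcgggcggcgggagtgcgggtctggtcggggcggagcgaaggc
Mcm3: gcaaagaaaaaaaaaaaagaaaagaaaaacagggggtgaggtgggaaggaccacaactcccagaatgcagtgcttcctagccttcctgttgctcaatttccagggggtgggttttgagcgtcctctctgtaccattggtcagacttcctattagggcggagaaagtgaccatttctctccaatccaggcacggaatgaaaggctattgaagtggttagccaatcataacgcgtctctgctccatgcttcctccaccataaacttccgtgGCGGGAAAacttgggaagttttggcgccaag

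DNA replication genes shifted less than mitosis genes. Of 37 replication genes, all tested, 14 rose and none fell (median 1.59, against 5.0% of all genes that rose). For 33 of them both THC libraries lay above both BC libraries, against 27.9% of all genes. Mcm2, a subunit of the replicative helicase, had 51.1 and 56.6 CPM in THC, against 4.90 and 6.29 CPM in BC (3.25 ± 0.56, adjusted p = 0.011). Rrm2, which makes the building blocks of DNA, had 65.9 and 47.6 CPM in THC, against 5.88 and 6.12 CPM in BC (3.22 ± 0.63, adjusted p = 0.0182). Pcna, the sliding clamp of the polymerase, stood apart from them with overlapping libraries, at 129.8 and 112 CPM in THC, against 178 and 88.7 CPM in BC (-0.14 ± 0.36, adjusted p = 0.847). Few replication calls held: edgeR called 2 without THC replicate 1, 0 without THC replicate 2, 2 without BC replicate 1 and 0 without BC replicate 2. Mcm2 was lost without THC replicate 2, BC replicate 1 or BC replicate 2 (up to 0.109), and Rrm2 whichever library was left out (up to 0.163). In the shared exons of Gins2 (67.3% of its exon bases), Chaf1a (52.5%) and Fen1 (84.2%) reads can belong to a neighbour.

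Among 16 regulators of the G1 phase 3 rose and 1 fell (median 0.75), where 5.0% of all genes rose and 2.72% fell. Ccnd1 (ENSMUSG00000070348, 7:144929931-144939925), cyclin D1, which drives entry into the cell cycle, had 242 and 284 CPM in THC, against 22.3 and 23.6 CPM in BC. Both THC libraries were far above both BC libraries (log2 fold change 3.52 ± 0.28 (SE), adjusted p = 0.000215), a call that held without each library in turn; 23.4% of its exon bases lie in another gene. It was at 51.8 and 89.1 CPM in TBC and 209.6 and 203 CPM in LC. Cdk6, a kinase partner of cyclin D, rose (1.65 ± 0.32, adjusted p = 0.0123), and so did Rbl1, a pocket protein of the retinoblastoma family (1.94 ± 0.45, adjusted p = 0.0278). Myc, a growth factor-induced transcription factor, fell, with 272 and 223 CPM in THC, against 677 and 637 CPM in BC (-1.41 ± 0.34, adjusted p = 0.0288). Cdk6 was lost without THC replicate 1 or BC replicate 1 (adjusted p up to 0.0777), and Rbl1 and Myc whichever of the 4 libraries was left out (up to 0.188 and 0.137).

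Luminal keratins and surface proteins rose. Of 22 pan-luminal genes, all tested, 13 rose and none fell (median 1.26, against 5.0% of all genes that rose). Their summed level was 6331 and 4941 CPM in THC, against 2707 and 2364 CPM in BC. Krt19 (ENSMUSG00000020911, 11:100140810-100148665), a keratin of simple epithelium, had 544 and 426 CPM in THC, against 101 and 91.2 CPM in BC. THC were well above BC (log2 fold change 2.33 ± 0.28 (SE), adjusted p = 0.00205). Krt7, a keratin of glandular epithelium, had 114 and 115 CPM in THC, against 25.1 and 30.1 CPM in BC (log2 fold change 2.04 ± 0.27 (SE), adjusted p = 0.00263). Rab25, which recycles proteins to the apical side, had 24.8 and 19.3 CPM in THC, against 6.86 and 7.74 CPM in BC (log2 fold change 1.57 ± 0.25 (SE), adjusted p = 0.00553), and Ehf, an epithelial ETS factor, had 113 and 217 CPM in THC, against 42.9 and 24.2 CPM in BC (log2 fold change 2.32 ± 0.35 (SE), adjusted p = 0.00507). These 4 calls held without each library in turn. The better-known Krt8, Krt18 and Epcam, an adhesion protein used to sort luminal cells, were also called (Krt8 1.17 ± 0.32, adjusted p = 0.0479, Krt18 1.46 ± 0.38, adjusted p = 0.0387 and Epcam 1.08 ± 0.28, adjusted p = 0.0368), but were lost whichever of the 4 libraries was left out (up to 0.301, 0.225 and 0.227). Gata3, a luminal transcription factor, was at 197 and 240.3 CPM in THC, against 181 and 219 CPM in BC (0.13 ± 0.30, adjusted p = 0.829), and Grhl2, an epithelial factor of both layers, at 91.8 and 108 CPM in THC, against 102 and 105 CPM in BC, with overlapping libraries in both. Over the list, 6, 6, 6 and 7 members were called without THC replicate 1, THC replicate 2, BC replicate 1 and BC replicate 2.

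Tight junction genes, which seal the luminal layer, were higher in part. Of 15 tested, 10 rose and none fell (median 1.92, against 5.0% of all genes that rose). Claudins, which span the membrane, led: Cldn7 had 59.3 and 54.1 CPM in THC, against 12.9 and 11.2 CPM in BC (log2 fold change 2.23 ± 0.23 (SE), adjusted p = 0.000855). Cldn3 had 62.4 and 81.9 CPM in THC, against 19.2 and 14.9 CPM in BC (log2 fold change 2.10 ± 0.23 (SE), adjusted p = 0.00116), and Cldn6, typical of embryonic epithelium, had 6.97 and 6.61 CPM in THC, against 0.588 and 1.19 CPM in BC (log2 fold change 2.80 ± 0.43 (SE), adjusted p = 0.00526). In each the THC libraries stood clear of BC, and the call held without each library in turn. Cldn7 and Cldn3 are also pan-luminal members. The cytoplasmic adaptor gene Tjp1, whose product tethers junctions to actin in many cell types, did not pass, at 0.07, and neither did Cldn4 (1.92 ± 0.63, adjusted p = 0.101), with 344 and 149.9 CPM in THC, against 89.4 and 41.2 CPM in BC. The list had 9, 5, 11 and 3 calls without THC replicate 1, THC replicate 2, BC replicate 1 and BC replicate 2.

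Hormone-sensing genes had the highest median of the luminal lists. Of 15 members, all tested, 11 rose and none fell (median 2.70, against 5.0% of all genes that rose). Their sum was 2597 and 2461 CPM in THC, against 481 and 638 CPM in BC. Areg (ENSMUSG00000029378, 5:91139599-91148432), amphiregulin, the EGF-type ligand that estrogen induces in the gland, had 225 and 187 CPM in THC, against 18.0 and 18.5 CPM in BC. Both THC libraries were far above both BC libraries, which nearly coincided (log2 fold change 3.49 ± 0.28 (SE), adjusted p = 0.000215). Foxa1, a factor that opens chromatin for the estrogen receptor, had 194 and 225 CPM in THC, against 19.8 and 32.8 CPM in BC (log2 fold change 2.98 ± 0.29 (SE), adjusted p = 0.000599). Cited1, a coactivator of estrogen-responsive genes, had 75.2 and 47.4 CPM in THC, against 5.49 and 5.61 CPM in BC (log2 fold change 3.44 ± 0.32 (SE), adjusted p = 0.000599). In all 3 the groups lay far apart, without overlap. Prlr, the prolactin receptor, had 1393 and 1249.8 CPM in THC, against 221 and 238 CPM in BC (log2 fold change 2.52 ± 0.33 (SE), adjusted p = 0.0026), and Wnt4, a ligand that progesterone induces, had 68.2 and 62.4 CPM in THC, against 12.9 and 11.3 CPM in BC (log2 fold change 2.43 ± 0.29 (SE), adjusted p = 0.00222). These 5 calls, and that of Prom1 (2.26 ± 0.35, adjusted p = 0.00551), held without each library in turn.

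Fold changes of the receptor genes themselves were smaller. Esr1, the estrogen receptor, had 105 and 132 CPM in THC, against 41.5 and 57.1 CPM in BC (1.27 ± 0.24, adjusted p = 0.0113), and Pgr, the progesterone receptor, had 183 and 223 CPM in THC, against 55.1 and 78.7 CPM in BC (1.60 ± 0.30, adjusted p = 0.0113). Both THC libraries were above both BC libraries, and both calls were lost without THC replicate 2 or BC replicate 1 (up to 0.0868 and 0.0767). Tnfsf11, the ligand RANKL through which progesterone signals to neighbouring cells, had 2 and 168 counts in THC and 0 in both BC libraries. Pooled over both THC libraries it was at least 54.9-fold higher, taken against 3 counts over both BC libraries. This bound rests on THC replicate 2 and does not hold for THC replicate 1 alone. The call was lost without THC replicate 2, BC replicate 1 or BC replicate 2. Nearly all its reads came from THC replicate 2. With Tnfsf11 set at this bound the list median stays at 2.70. The hormone-sensing list had 11, 6, 7 and 8 calls without THC replicate 1, THC replicate 2, BC replicate 1 and BC replicate 2. Tbx3, a factor of hormone-sensing cells, had overlapping libraries at 82.5 and 100.1 CPM in THC, against 74.3 and 149 CPM in BC (-0.29 ± 0.36, adjusted p = 0.671).

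**Figure D3:**
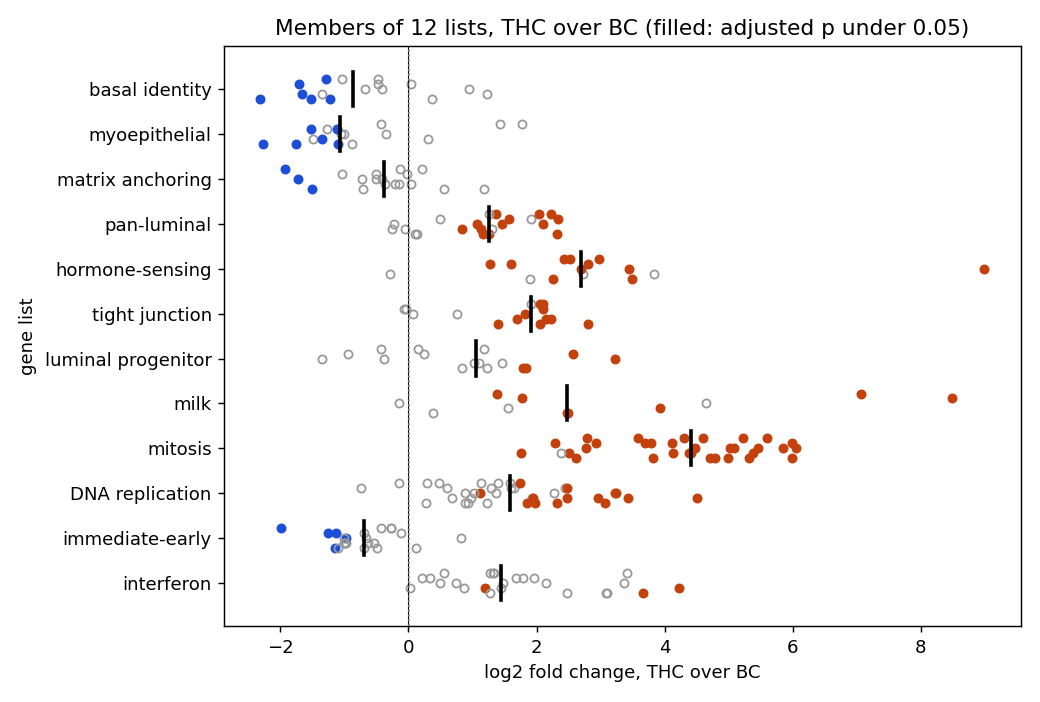
Log2 fold change of THC over BC (x axis) of each tested member of 12 gene lists (y axis), filled where the adjusted p is under 0.05; black bars mark list medians and the dotted line the median of all genes (0.01). Mitosis members lie highest as a group, with a median of 4.41, and the hormone-sensing point farthest right is Tnfsf11, whose fitted value is no bound.

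Luminal progenitor genes rose in part. Of 16 tested, 4 rose and none fell (median 1.06, against 5.0% of all genes that rose). Their sum overlapped between the groups, at 2291 and 2850.2 CPM in THC, against 2538 and 1753 CPM in BC. The median log2 ratio of the list was -0.15 between the first THC and BC libraries and 2.04 between the second. Cyp24a1, which breaks down vitamin D, had 15.5 and 26.3 CPM in THC, against 2.35 and 2.21 CPM in BC (log2 fold change 3.22 ± 0.44 (SE), adjusted p = 0.00296), a call that held without each library in turn. Elf5, a transcription factor of secretory alveolar cells, had 40.3 and 106 CPM in THC, against 15.7 and 9.86 CPM in BC (2.57 ± 0.47, adjusted p = 0.0121), and Wfdc18, a small secreted protein, had 96.5 and 127 CPM in THC, against 41.4 and 24.5 CPM in BC (1.78 ± 0.30, adjusted p = 0.00671). Aldh1a3, an enzyme of retinoic acid synthesis used as a progenitor marker, had 27.9 and 80.9 CPM in THC, against 15.1 and 16.2 CPM in BC (1.84 ± 0.41, adjusted p = 0.0262). In all 4 the groups did not overlap. THC replicate 2 was higher than replicate 1 for each of them, and the calls of Elf5 and Wfdc18 were lost without THC replicate 2 or BC replicate 2 and that of Aldh1a3 without THC replicate 2, BC replicate 1 or BC replicate 2 (up to 0.127, 0.0637 and 0.204). The list had 5, 1, 4 and 1 calls with THC replicate 1, THC replicate 2, BC replicate 1 and BC replicate 2 left out in turn. Kit, the receptor that marks progenitors, overlapped at 82.9 and 269 CPM in THC, against 97.0 and 55.6 CPM in BC (1.23 ± 0.51, adjusted p = 0.177), as did the iron-binding milk protein gene Ltf at 289 and 326 CPM in THC, against 367 and 154 CPM in BC (0.24 ± 0.40, adjusted p = 0.754).

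Milk genes were higher in hybrid cells, with BC at low levels. Of 15 members 11 passed the filter on low counts, so the following counts leave out Wap, Olah, Csn1s2b and Glycam1. Among these 11, 7 rose and none fell (median 2.47, against 5.0% of all genes that rose). Csn1s2a (ENSMUSG00000061937, 5:87774567-87788797), a calcium-binding casein, had 86.8 and 146 CPM in THC, against 0.784 and 0.0850 CPM in BC, or 224 and 2163 counts in THC and 4 and 1 in BC. It had the highest log2 fold change of the 12 genes that rose most (log2 fold change 8.49 ± 1.24 (SE), adjusted p = 0.00791). Csn2, beta-casein, had 336 and 481 CPM in THC, against 6.86 and 0.510 CPM in BC (log2 fold change 7.07 ± 1.46 (SE), adjusted p = 0.0329), and Lalba, alpha-lactalbumin, which lactose synthesis requires, had 86.0 and 50.9 CPM in THC, against 8.62 and 1.28 CPM in BC (log2 fold change 3.93 ± 0.79 (SE), adjusted p = 0.0219). THC exceeded BC in every library, while the BC libraries themselves differed by more than 5-fold in Csn1s2a, Csn2 and Lalba, replicate 1 being the higher. Csn1s1, alpha-casein, with 558 and 686 CPM in THC, against 47.4 and 4.0 CPM in BC, did not pass (4.65 ± 1.47, adjusted p = 0.108). Of the milk fat genes, Btn1a1, which coats fat globules, rose (2.49 ± 0.43, adjusted p = 0.00985) and so did Plin2, a coat protein of lipid droplets (1.38 ± 0.26, adjusted p = 0.0111), but Xdh, the partner of Btn1a1 in fat secretion, was at 80.2 and 84 CPM in THC, against 66.2 and 60.5 CPM in BC (0.38 ± 0.21, adjusted p = 0.312). Csn1s2a was lost without BC replicate 2, Btn1a1 without THC replicate 2, Plin2 without THC replicate 1, BC replicate 1 or BC replicate 2, Lalba without THC replicate 1, THC replicate 2 or BC replicate 2, and Csn2 whichever of the 4 was left out (adjusted p up to 0.113, 0.0624, 0.0801, 0.102 and 0.173). Milk calls numbered 3, 2, 4 and 1 in the fits without THC replicate 1, THC replicate 2, BC replicate 1 and BC replicate 2.

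Casein genes answer to prolactin through STAT5, and the STAT-type motif TTCNNNGAA was searched in the same windows. It was in 4 of the 10 milk genes with a window (40%), 3 of which had too few counts to be tested (Wap, Olah and Glycam1, the last with a match), against 9.55% of all genes and 0 of 28 mitosis genes. Windows are shown for Csn1s2a and Csn2, the 2 called milk genes whose window holds the motif. It is in capitals, with 1 match each and free of overlap with another motif searched. Csn1s2a is at chr5:87774200-87774499 on the plus strand and Csn2 at chr5:87699376-87699675 on the minus strand. The windows follow RefSeq starts, which differ from the GENCODE coordinates used for genes. By GENCODE, Csn1s2a starts at 87774567, beyond the end of its window, and Csn2 starts at 87699630, inside its window.
Csn1s2a: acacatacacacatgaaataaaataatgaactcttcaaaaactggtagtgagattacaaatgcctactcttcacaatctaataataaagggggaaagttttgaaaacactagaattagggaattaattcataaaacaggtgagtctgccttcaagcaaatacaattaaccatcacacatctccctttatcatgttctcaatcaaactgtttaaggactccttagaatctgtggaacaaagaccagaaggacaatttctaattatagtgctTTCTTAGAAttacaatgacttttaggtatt
Csn2: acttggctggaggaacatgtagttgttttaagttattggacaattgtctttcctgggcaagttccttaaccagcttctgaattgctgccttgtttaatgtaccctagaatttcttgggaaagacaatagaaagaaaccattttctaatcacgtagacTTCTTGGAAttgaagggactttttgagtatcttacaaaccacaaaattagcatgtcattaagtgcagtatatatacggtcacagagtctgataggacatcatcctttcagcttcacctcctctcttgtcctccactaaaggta

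By list median, basal identity genes shifted by less than the luminal, mitosis and replication lists, an ordering that was not tested. Of 16 basal identity genes, all tested, 6 fell and none rose (median -0.86, against 2.72% of all genes that fell), and their sum was 7262 and 6612 CPM in THC, against 10590.0 and 13480.0 CPM in BC. Trp63 (ENSMUSG00000022510, 16:25683763-25892102), which encodes p63, had 170.1 and 249.8 CPM in THC, against 493 and 539.6 CPM in BC (log2 fold change -1.29 ± 0.30 (SE), adjusted p = 0.0255). Lgr5, a receptor that boosts Wnt signalling, had 102 and 102 CPM in THC, against 423 and 592 CPM in BC (log2 fold change -2.31 ± 0.39 (SE), adjusted p = 0.00829). Egfr, the EGF receptor, had 109 and 151 CPM in THC, against 405 and 423 CPM in BC (log2 fold change -1.67 ± 0.32 (SE), adjusted p = 0.0115). In these 3 both THC libraries lay below both BC libraries, and Jag2, Krt17 and Cdh3 (P-cadherin) fell too (-1.23, -1.71 and -1.52). Krt14 and Krt5 did not pass: their fold changes were -1.35 ± 0.51, adjusted p = 0.137 and -1.04 ± 0.45, adjusted p = 0.19, with Krt5 at 652 and 408 CPM in THC, against 768 and 1402 CPM in BC. Vim, vimentin, and Sox9, a progenitor factor, did not pass either (0.38 and 0.03). All 6 calls were lost without BC replicate 2, Cdh3 also without each of the others, Trp63 also without THC replicate 1 or BC replicate 1, Lgr5 and Jag2 without either THC library, Egfr without THC replicate 1, and Krt17 without THC replicate 2 or BC replicate 1. Adjusted p reached 0.189 for Trp63, 0.0617 for Lgr5, 0.0933 for Egfr, 0.158 for Jag2, 0.158 for Krt17 and 0.166 for Cdh3.

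The contractile genes of myoepithelium followed the basal ones. Of 16, all tested, 6 fell and none rose (median -1.07, against 2.72% of all genes that fell). Their sum was 5784 and 5184 CPM in THC, against 9088 and 14558 CPM in BC. Oxtr (ENSMUSG00000049112, 6:112473683-112489943), the oxytocin receptor, had 488 and 394 CPM in THC, against 1127 and 1836 CPM in BC (log2 fold change -1.75 ± 0.39 (SE), adjusted p = 0.0217). Lmod1, which seeds actin filaments in smooth muscle, had 28.3 and 50.7 CPM in THC, against 200.1 and 189 CPM in BC (log2 fold change -2.27 ± 0.39 (SE), adjusted p = 0.00869), and Cnn1, the actin-binding calponin, had 159.6 and 143 CPM in THC, against 302 and 568 CPM in BC (log2 fold change -1.53 ± 0.35 (SE), adjusted p = 0.0255). THC were the lower in all 3, without overlap. Acta2, smooth muscle actin, at 1292 and 997 CPM in THC, against 1510.1 and 2684 CPM in BC, and Myh11, its myosin, at 757 and 1077 CPM in THC, against 1716 and 3418 CPM in BC, did not pass (-0.87 ± 0.44, adjusted p = 0.249 for Acta2 and -1.48 ± 0.44, adjusted p = 0.0665 for Myh11). Tagln shares 67.9% of its exon bases with another gene. The BC libraries differed for many of these genes, replicate 2 being the higher in Oxtr, Cnn1, Acta2 and Myh11. The list had 6 calls without BC replicate 1, but 1 without THC replicate 1, 1 without THC replicate 2 and 0 in edgeR's test without BC replicate 2. Oxtr and Cnn1 were lost in the last 3 of these fits and Lmod1 without THC replicate 1 or BC replicate 2 (up to 0.136, 0.171 and 0.0573).

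Of 18 genes that anchor basal cells to the matrix, all tested, 3 fell and none rose (median -0.39, against 2.72% of all genes that fell). Lamb3 (ENSMUSG00000026639, 1:193207699-193343878), a chain of laminin-332 in the hemidesmosome, had 185 and 189 CPM in THC, against 539.6 and 695 CPM in BC. THC lay far below BC (log2 fold change -1.73 ± 0.22 (SE), adjusted p = 0.00247), a call that held without each library in turn. Its partner chain gene Lama3 had 363 and 319 CPM in THC, against 965 and 979 CPM in BC (log2 fold change -1.51 ± 0.26 (SE), adjusted p = 0.00791), and Dst, a linker from hemidesmosomes to the cytoskeleton, had 1525 and 1757 CPM in THC, against 7258 and 5259.8 CPM in BC (log2 fold change -1.93 ± 0.37 (SE), adjusted p = 0.0112). Their calls were lost without THC replicate 2 and, for Dst, also without THC replicate 1 (up to 0.0571 and 0.0835). The integrin chain gene Itgb4 did not pass (-0.14).

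The 12 genes that fell most included several known from neurons. Brinp3 (ENSMUSG00000035131, 1:146494760-146902472), a neuronal protein gene, had 1.94 and 2.56 CPM in THC, against 39.8 and 33.2 CPM in BC (log2 fold change -3.94 ± 0.38 (SE), adjusted p = 0.000599). Frmpd4, a scaffold of synapses, had 0.387 and 1.21 CPM in THC, against 9.995 and 25.2 CPM in BC (log2 fold change -4.14 ± 0.64 (SE), adjusted p = 0.00595), and Grik3, a kainate-type glutamate receptor subunit, had 46.5 and 105 CPM in THC, against 507 and 728 CPM in BC (log2 fold change -3.00 ± 0.40 (SE), adjusted p = 0.00332). THC were far below BC in each, and these calls, with that of the synapse adhesion gene Lrrtm1 (-3.61 ± 0.58, adjusted p = 0.00595), held without each library in turn. Scn7a, a sodium channel, had 72.4 and 151 CPM in THC, against 1256 and 1337 CPM in BC (log2 fold change -3.52 ± 0.61 (SE), adjusted p = 0.011); its call was lost without THC replicate 1 or BC replicate 2 (up to 0.0767). Xkr4, a membrane protein gene, and Tcf24, a helix-loop-helix factor, were also among them (-3.20 and -3.77, up to 0.103 without THC replicate 1, THC replicate 2 or BC replicate 2, and 0.0715 without either THC library). The other 5 were Speer4e, Gm21847, Gm21190, Gm21149 and Gm43391 on chromosome 5, where the Speer family has near-identical copies. Reads without a unique alignment were left out of the gene counts, and these were most frequent in THC replicate 1 (43.0%). Whether this affected the 5 genes was not tested. They had 0 to 1.16 CPM in THC replicate 1 and 1.75 to 8.57 CPM in THC replicate 2, against 9.61 to 69.2 CPM in BC. Their fold changes ran from -3.32 to -3.05, and all 5 calls were lost without THC replicate 1, BC replicate 1 or BC replicate 2, and those of Speer4e and Gm21190 also without THC replicate 2 (up to 0.168 in Gm21190).

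**Figure D4:**
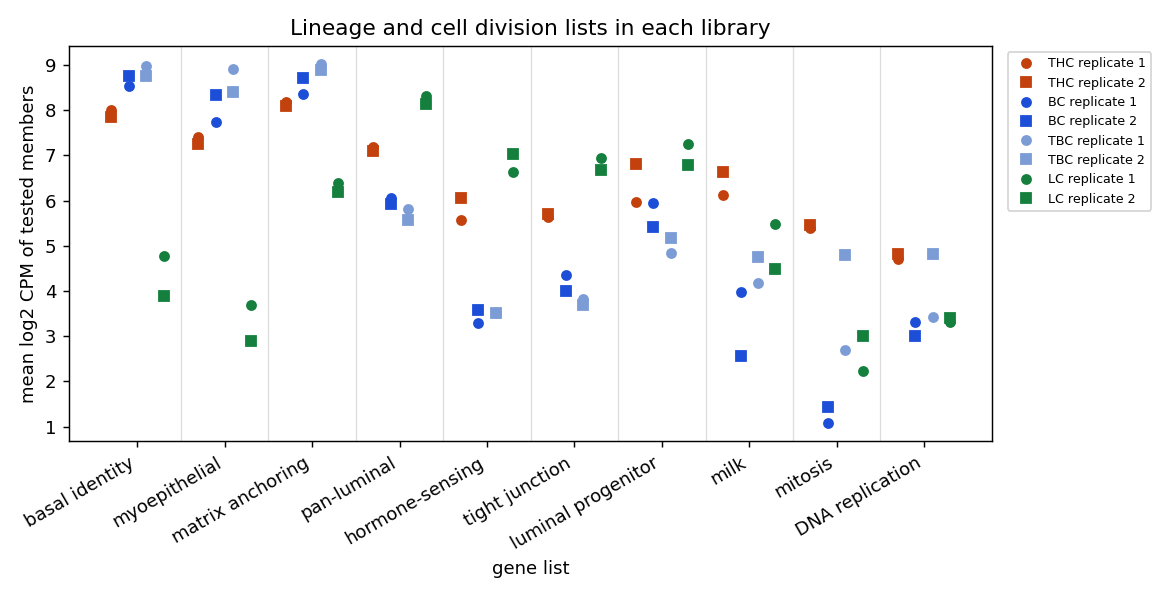
Mean log2 CPM (y axis) of the tested members of 10 gene lists (x axis) in each THC, BC, TBC and LC library. THC lie between BC and LC in the basal, myoepithelial, pan-luminal, hormone-sensing and tight junction lists, and above both BC and both LC libraries in the milk, mitosis and replication lists. For milk genes this holds for the mean of log2 values only. Their summed CPM overlapped, at 1930 and 2791.5 in THC against 2444.4 and 1200.6 in LC. The median log2 fold change of milk genes in THC over LC was 0.05, with 2 of 11 called higher. In the replication list TBC replicate 2 (4.82) lies level with the THC libraries (4.70 and 4.83), while TBC replicate 1 lies lower (3.43).

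Signalling lists held calls in both directions, set here beside the 7.71% of all genes called in either one. Of 18 Notch genes tested out of 20, 1 rose and 2 fell: the receptor gene Notch3 had 141 and 155 CPM in THC, against 49.2 and 24.0 CPM in BC (log2 fold change 2.03 ± 0.31 (SE), adjusted p = 0.00524), a call that held without each library in turn. The ligand genes Dll1 (-1.50 ± 0.30, adjusted p = 0.0142, 20.5% of exon bases shared with another gene) and Jag2 (-1.23 ± 0.27, adjusted p = 0.0213) fell. Notch3 also marks pericytes, whose other members are given below. Of 10 Wnt ligands tested, Wnt4 and Wnt7b rose (1.47 ± 0.30, adjusted p = 0.0159 for the second) and Wnt9a fell (-2.04 ± 0.32, adjusted p = 0.00551). Of 15 Wnt targets and antagonists tested, 4 fell and 1 rose (median -0.90). Dkk3, a secreted protein of the Dickkopf family, had 56.6 and 57.2 CPM in THC, against 285 and 214 CPM in BC (log2 fold change -2.13 ± 0.27 (SE), adjusted p = 0.00242), a call that held without each library in turn. Lgr5, its relative Lgr4 (-1.15) and the antagonist Wif1 (-2.26) fell as well, and Sfrp4, another secreted antagonist, was the 1 that rose (3.12 ± 0.75, adjusted p = 0.0286). Sfrp4 was lost whichever of the 4 libraries was left out (up to 0.196). Dll1, Jag2, Lgr4 and Wif1 were lost without THC replicate 1, THC replicate 2 or BC replicate 2, Wnt7b without THC replicate 2 or BC replicate 2, and Wnt9a without THC replicate 2 (up to 0.0811, 0.158, 0.124, 0.127, 0.132 and 0.051).

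In the EGF family, where 4 of 21 rose and 2 fell (median 0.69), both directions occurred. Over all genes, 5.0% rose and 2.72% fell. Besides Areg, the ligand gene Btc rose (2.45 ± 0.49, adjusted p = 0.0145), and the receptor gene Erbb3, which pairs with ErbB2, had 166 and 216 CPM in THC, against 46.8 and 55.5 CPM in BC (log2 fold change 1.90 ± 0.24 (SE), adjusted p = 0.00249). Egfr, as above, and the feedback inhibitor Spry1 (-1.03 ± 0.24, adjusted p = 0.0239, 24.4% of exon bases shared) fell. Erbb3 held without each library in turn, Btc was lost without THC replicate 2 or BC replicate 2 and Spry1 without THC replicate 1 or BC replicate 2 (up to 0.179 and 0.179). Of 16 YAP and TAZ genes 3 fell and 1 rose (median -0.73). Ccn2 (ENSMUSG00000019997, 10:24595442-24598683), a secreted target of YAP, had 282 and 232 CPM in THC, against 861 and 952 CPM in BC (log2 fold change -1.82 ± 0.28 (SE), adjusted p = 0.00497). THC were the lower without overlap, and the call held without each library in turn; 23.2% of its exon bases lie in another gene. Of 22 TGF-beta and BMP genes 4 rose and 2 fell, and the smallest adjusted p was that of Inhbb, an activin subunit, at 104 and 135 CPM in THC, against 54.7 and 40.9 CPM in BC (1.34 ± 0.27, adjusted p = 0.015), which was lost without THC replicate 2 or BC replicate 2 (up to 0.124).

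Of the TNF and NF-kappaB genes, 1 of 16 TNF pathway components rose and 2 fell (median 0.02), and 1 of 22 NF-kappaB targets tested rose and 2 fell (median 0.37), where 5.0% of all genes rose and 2.72% fell. Tnf had 22.9 and 26.1 CPM in THC, against 11.8 and 7.82 CPM in BC. THC were the higher without overlap, but Tnf did not pass (1.35 ± 0.42, adjusted p = 0.0745). Tnfaip2, a target of TNF, rose (1.91 ± 0.31, adjusted p = 0.00611), and the adhesion gene Icam1 fell (-1.43 ± 0.36, adjusted p = 0.0368), with both lost without THC replicate 2 or BC replicate 2 and Icam1 also without BC replicate 1 (up to 0.0617 and 0.162). Of 18 p53 targets 2 rose and none fell (median -0.00), namely Zmat3, an RNA-binding growth inhibitor, at 52.7 and 49.3 CPM in THC, against 13.7 and 21.5 CPM in BC (log2 fold change 1.51 ± 0.26 (SE), adjusted p = 0.00688), held without each library in turn, and Eda2r (2.85 ± 0.77, adjusted p = 0.048), lost whichever of the 4 was left out (up to 0.28).

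H19 and fibronectin stood out among genes of fetal and mesenchymal kind. The lists in this paragraph are set beside 5.0% of all genes that rose and 2.72% that fell. Of 13 fetal and imprinted genes 11 were tested, of which 4 rose and none fell (median 1.36). H19 (ENSMUSG00000000031, 7:142575529-142578143), an imprinted noncoding RNA abundant before birth, had 35.3 and 16.9 CPM in THC, against 0.196 and 0.510 CPM in BC (log2 fold change 5.95 ± 0.88 (SE), adjusted p = 0.00537). It was the higher in both THC libraries, its call was lost without BC replicate 2 (up to 0.0637), and its imprinted neighbour Igf2 did not pass (1.10 ± 0.84, adjusted p = 0.464). Of 12 genes of epithelial-mesenchymal transition tested out of 13, Fn1 alone rose (median 0.56). Fn1 (ENSMUSG00000026193, 1:71585520-71653200), fibronectin, had 289 and 280.4 CPM in THC, against 15.9 and 24.3 CPM in BC. Both THC libraries were far above both BC libraries (log2 fold change 3.81 ± 0.44 (SE), adjusted p = 0.00247), a call that held without each library in turn, and TBC libraries lay between, at 179 and 71.0 CPM in TBC. Snai1, Twist1 and Zeb1, transcription factors of this programme, did not pass (-0.03, 0.74 and 1.46). Of 12 desmosome genes 4 rose and none fell (median 0.13), with the luminal-type plakophilin gene Pkp2 at 32.2 and 29.8 CPM in THC, against 8.43 and 5.10 CPM in BC (log2 fold change 2.23 ± 0.33 (SE), adjusted p = 0.00456), held without each library in turn. Of 21 guidance genes Ntn4, a netrin of basement membranes, had 38.7 and 55.6 CPM in THC, against 341 and 344 CPM in BC (log2 fold change -2.84 ± 0.27 (SE), adjusted p = 0.000599), also held without each library, and was the only member that fell. Nrp1 was the only member that rose (1.43 ± 0.35, adjusted p = 0.0295, up to 0.183 without THC replicate 1, THC replicate 2 or BC replicate 2).

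Some immediate-early genes, which respond within minutes to growth factors and to handling of cells, fell. Of 22 tested, 5 fell and none rose (median -0.69, against 2.72% of all genes that fell). Both THC libraries lay below both BC libraries for 16 of them, against 26.0% of all genes. Egr2, a zinc finger factor, had 93.0 and 140.1 CPM in THC, against 409 and 523 CPM in BC (log2 fold change -1.99 ± 0.29 (SE), adjusted p = 0.00407), held without each library in turn. Fos had 2406 and 2779 CPM in THC, against 5480.2 and 4986 CPM in BC and did not pass (-1.01 ± 0.30, adjusted p = 0.063), and Junb, its partner, fell (-1.26 ± 0.23, adjusted p = 0.00994), lost without THC replicate 1, THC replicate 2 or BC replicate 2 (up to 0.0706). Calls in this list numbered 1, 2, 5 and 1 without THC replicate 1, THC replicate 2, BC replicate 1 and BC replicate 2. None of 14 heat shock genes and none of 20 genes of the unfolded protein response passed in edgeR's test (medians -0.39 and 0.44), where 5 and 4 had an unadjusted p under 0.05. DESeq2 called 3 heat shock genes and 0 of the other list, and limma-voom 1 and 0. Of 22 lipid synthesis genes 3 rose and none fell (median 0.22), the smallest adjusted p being that of the desaturase gene Scd1 (1.44 ± 0.26, adjusted p = 0.0084, up to 0.0589 without THC replicate 2 or BC replicate 1). Interferon-stimulated genes leaned upward with few calls: all 25 fold changes were above 0 (median 1.44), but 3 passed, against 5.0% of all genes that rose, namely Oas2, Ifi44 and the RNA sensor gene Ifih1. Ifi44 had 61.2 and 28.4 CPM in THC, against 4.31 and 2.81 CPM in BC (3.67 ± 0.87, adjusted p = 0.0401). The summed level of the list was 1034 and 577 CPM in THC, against 390.0 and 379 CPM in BC, so THC replicate 1 was the highest, and all 3 calls were lost whichever of the 4 libraries was left out (up to 0.236, 0.264 and 0.142).

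Markers of other cell types were measured beside these results, and their part in them was not tested. Fibroblast markers summed to 1007 and 2081 CPM in THC, against 343 and 319.5 CPM in BC. Of 12, 4 rose and none fell (median 2.68), where 5.0% of all genes rose. Col3a1, a fibrillar collagen, had 319.6 and 541 CPM in THC, against 20.4 and 24.4 CPM in BC (4.26 ± 0.81, adjusted p = 0.0199), and Col1a1 had 244 and 719.9 CPM in THC, against 20.2 and 34.6 CPM in BC (4.13 ± 0.82, adjusted p = 0.0235). The fibroblast receptor Pdgfra and the proteoglycan gene Dcn did not pass: Pdgfra had 24.8 and 31.0 CPM in THC, against 69.8 and 51.4 CPM in BC (-1.10 ± 0.37, adjusted p = 0.0906), and Dcn had 57.7 and 152 CPM in THC, against 119 and 85.3 CPM in BC (0.06 ± 0.62, adjusted p = 0.966). Immune markers summed to 218 and 96.0 CPM in THC, against 65.5 and 29.3 CPM in BC. Of 20, 15 were tested and 2 rose (median 2.23), against the same 5.0% of all genes. Adgre1, of macrophages, had 13.9 and 3.24 CPM in THC, against 0.392 and 0.595 CPM in BC (3.91 ± 0.87, adjusted p = 0.0213), and the pan-leukocyte gene Ptprc had 22.1 and 12.1 CPM in THC, against 5.49 and 0.935 CPM in BC (2.50 ± 0.87, adjusted p = 0.112). Endothelial markers summed to 1047 and 1043 CPM in THC, against 724 and 235 CPM in BC. None of 18 passed in edgeR's test, while 6 had an unadjusted p under 0.05, DESeq2 called 2 and limma-voom 3. All 18 were above 0 (median 1.19) and 15 had both THC libraries above both BC libraries, against 27.9% of all genes. In the fits without THC replicate 1, THC replicate 2, BC replicate 1 and BC replicate 2, edgeR called 1, 0, 1 and 0 fibroblast and 1, 2, 5 and 0 immune markers. Pericyte markers summed to 576 and 439 CPM in THC, against 466 and 258 CPM in BC, with Notch3 as the only call among 8 tested of 9. Both antigen presentation genes Cd74 (1.43 ± 0.35, adjusted p = 0.0325) and H2-Aa (1.55 ± 0.38, adjusted p = 0.0323), which macrophages and B cells carry, were among 3 of 17 such genes that rose. Of 3 adipocyte, 1 erythrocyte and 3 muscle markers tested none passed in edgeR's test, DESeq2 or limma-voom, with 0, 0 and 1 at an unadjusted p under 0.05. Col3a1 was lost whichever of the 4 libraries was left out, Col1a1 without THC replicate 2 or either BC library, Adgre1 and Cd74 without THC replicate 1 or either BC library, and H2-Aa without THC replicate 1 or BC replicate 2 (up to 0.172, 0.162, 0.128, 0.286 and 0.252).

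**Figure D5:**
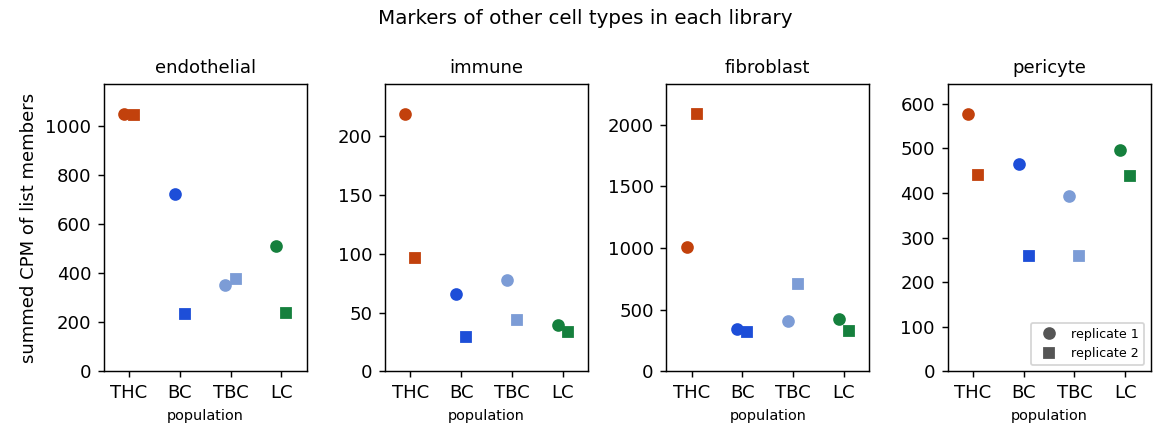
Summed CPM (y axis) of endothelial, immune, fibroblast and pericyte markers in each library of the 4 populations (x axis). Both THC libraries lie above both BC libraries for endothelial, immune and fibroblast markers, while 1 BC library lies above 1 THC library for pericyte markers.

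Beside LC, many genes of the basal, myoepithelial, pan-luminal, hormone-sensing and tight junction lists lay between the control populations in hybrid cells. Of all 19757 genes tested, 8.27% had the THC libraries between those of BC and LC with LC the higher, and 7.50% with BC the higher. These shares count genes that do not separate BC from LC as well. The share among genes that do separate them was not computed. Of the pan-luminal genes 16 of 22 lay between in this way with LC highest, as did 9 of 15 hormone-sensing and 11 of 15 tight junction genes. Of the basal identity genes 10 of 16 lay between with BC highest, as did 12 of 16 myoepithelial genes. Fewer did so in the other lists: 4 of 16 luminal progenitor genes and 1 of 11 milk genes with LC highest, 6 of 18 matrix genes with BC highest, and 0 of 33 mitosis genes. Areg stood at 225 and 187 CPM in THC, 18.0 and 18.5 CPM in BC and 453 and 378 CPM in LC, and Trp63 at 170.1 and 249.8 CPM in THC, 493 and 539.6 CPM in BC and 9.54 and 6.46 CPM in LC. Against LC, THC had 2551 called genes (12.9%), of which 1760 (8.91%) were higher and 791 (4.0%) lower. The number was 1332 without THC replicate 1, 1266 without THC replicate 2, 1741 without LC replicate 1 and 1191 without LC replicate 2. All 16 myoepithelial genes and 13 of 16 basal identity genes were higher in THC than in LC (medians 4.04 and 4.37), while 13 of 22 pan-luminal and 7 of 15 hormone-sensing genes were lower (medians -1.13 and -1.04). Against LC the log2 fold change was 5.31 ± 0.61, adjusted p = 0.000526 for Krt14 and -1.94 ± 0.24, adjusted p = 0.000563 for Esr1, and both calls held without each THC or LC library in turn.

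Against TBC, which carry the same treatment and Tomato labels, THC had 734 called genes (3.72%), 508 (2.57%) higher and 226 (1.14%) lower. The number was 322 without THC replicate 1, 208 without the second THC library, 177 without the first TBC library and 222 without the second. This comparison and those with BC and LC share the THC libraries, so their values are given side by side and not as separate evidence. The luminal lists were higher here too, with 12 of 22 pan-luminal, 10 of 15 hormone-sensing, 11 of 15 tight junction and 8 of 16 luminal progenitor genes called. Foxa1 had 194 and 225 CPM in THC, against 24.0 and 23.1 CPM in TBC (3.16 ± 0.29, adjusted p = 0.000482), a call that held without each THC or TBC library in turn. Kit had 82.9 and 269 CPM in THC, against 21.2 and 31.0 CPM in TBC (2.76 ± 0.54, adjusted p = 0.0249), and Ltf had 289 and 326 CPM in THC, against 65.8 and 72.9 CPM in TBC (2.15 ± 0.41, adjusted p = 0.0169). The call of Kit was lost without THC replicate 2 or either TBC library and that of Ltf whichever of these 4 libraries was left out (up to 0.201 and 0.144). Of the myoepithelial genes 7 of 16 were lower in THC than in TBC (median -1.51). Of 33 mitosis genes 0 passed against TBC in edgeR's test (median 1.33), while 19 had an unadjusted p under 0.05, DESeq2 called 9 and limma-voom 1. Mki67 had 396 and 499 CPM in THC, against 69.9 and 251 CPM in TBC (1.48 ± 0.52, adjusted p = 0.181). The TBC libraries were far apart for this gene, replicate 2 being the closer to THC, as in the summed mitosis level of 311 and 1299 CPM in TBC. Of 37 replication genes 1 was called higher against TBC (median 0.42), where 2.57% of all genes were. Their sum was 1550 and 1598 CPM in THC, against 701 and 1613.5 CPM in TBC. Csn2 had 39.5 and 81.4 CPM in TBC and H19 16.6 and 4.54 CPM in TBC, both between the levels of THC and BC.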

How the data were processed

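Per the labels' protocols, cells of the mammary gland were sorted by flow cytometry, RNA was isolated with RNeasy Micro columns, libraries were made with the Ovation Solo RNA-Seq kit and reads came from an Illumina NovaSeq. The deposited values are whole-number read counts per gene, which the authors made with STAR and HTSeq on GRCm38 (mm10), per the submitters' processing notes. No source used here gives versions or whether counting used strand, so reads of overlapping genes cannot be assigned surely. The 5 HTSeq summary rows were left out, and gene symbols and coordinates (GRCm38) were looked up by gene ID in GENCODE M21 for 49412 of 49671 IDs.

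Genes were kept by filterByExpr in edgeR 4.0.16 (R 4.3.3), scaled by TMM and fitted over all 10 libraries with 1 mean for each of 5 populations (5 residual degrees of freedom). The robust quasi-likelihood F-test was used with Benjamini-Hochberg adjustment over 19757 genes at 0.05. It was also run on simulated counts in which a set of genes was changed in THC alone. That setting is simpler than these data, where the other populations also differ from each other. CPM uses TMM-scaled library sizes, so levels are not compared between genes. The interval of a count ratio is exact at 95% and covers counting error alone.

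Named genes were the 12 highest and 12 lowest called log2 fold changes that reached a mean of 10 CPM in THC or BC without overlap of libraries, up to 4 called members of each list with the smallest adjusted p, and fixed lineage anchors. Further members of a list described are named with their values. The 38 gene lists and the comparison were chosen with earlier results of these data known. Alternatives were RLE and upper-quartile factors, DESeq2 1.42.0, limma-voom (limma 3.58.1), no filter, 5 CPM in 2 libraries, a fit of the 2 populations alone, counts thinned to 2757773, the library-number set as a block, and each library left out in turn. A few members of the lists are not reported here.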

Additional observations from a re-analysis of the deposited data

How the results depend on the processing

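Of the genes picked by the naming rule, none reversed in THC over BC under any alternative run (other genes and the gene values against TBC and LC were not rerun, apart from leaving out libraries), and the median of all genes stayed between -0.08 and 0.08 on the log2 scale. Counts called in THC over BC that moved by more than 1.5 times were as follows. DESeq2 called 939 genes lower, 10 immediate-early and 6 immune genes. Limma-voom called 8 immediate-early, 8 fibroblast and 5 immune genes. Without a filter on low counts 2707 genes were called (1619 higher, 1088 lower), with 11 myoepithelial, 8 luminal progenitor, 25 replication, 9 immediate-early and 6 immune genes. The 5 CPM filter left 0 immune calls in edgeR's test, and thinning left 1. A fit of the 2 populations alone called 8 pan-luminal and 3 immediate-early genes. For THC over TBC, DESeq2 called 1385 genes (821 higher, 564 lower), no filter 1839 (1083 and 756), and the fit of 2 populations 1243, with 487 lower. The cause of these moves was not tested.

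Leaving out 1 library at a time gave 280 to 935 calls for THC over BC, 174 to 484 higher and 103 to 451 lower. By list, the lowest and highest numbers were 0 and 3 for basal identity, 0 and 6 for myoepithelial, 6 and 7 for pan-luminal, 6 and 11 for hormone-sensing, 1 and 5 for luminal progenitor, 3 and 11 for tight junction, 1 and 4 for milk, 3 and 20 for mitosis, 0 and 2 for replication, 1 and 5 for immediate-early, 0 and 1 for fibroblast and 0 and 5 for immune genes. For THC over LC 1191 to 1741 were called (792 to 1257 higher, 204 to 484 lower), and for THC over TBC 177 to 322 (156 to 305 higher, 17 to 62 lower). In these fits the population with 1 library left is assumed to vary like the others. Of the 123 genes called that the naming rule picked, 28 stayed called in all 4 such fits.

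Libraries share a library-number set, but nothing ties a set to animals, and each population has only 2 libraries, so the sets were not taken as pairs. Deviations of THC within sets correlated at 0.107 with those of BC, 0.247 with TBC, 0.161 with LC and 0.421 with Tomato luminal cells, and the other population pairs ran from -0.0124 to 0.408. With the set as a replicate block, 2800 genes were called for THC over BC (1652 higher, 1148 lower), with 4 milk, 10 immediate-early and 8 immune genes. The block gave 1510 for THC over TBC (956 higher, 554 lower) and 1401 lower for THC over LC. With 2 libraries in each population and THC replicate 1 at 2757773 counts, genes at a few CPM could be resolved only for large differences.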
